A study of Homo sapiens with 8 samples.

Results

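The genes of the translation initiation factors were followed through peak lists of an eCLIP study of PTBP1 and IGF2BP2 in A172, an established human glioma cell line. Members were all peaks whose annotated gene symbol starts with EIF followed by a digit from 1 to 6, leaving out symbols with -AS or ending in P plus a number. This gave 55 of the 19767 gene symbols in the lists, with 1303 and 1204 peaks in the PTBP1 replicates and 959 and 927 peaks in the IGF2BP2 replicates. These peaks were 0.217% and 0.223% of the PTBP1 lists (600615 and 538802 peaks) and 0.264% and 0.272% of the IGF2BP2 lists (362700 and 341305 peaks). The rule left out EIF1B-AS1, and it also left out EIF4EBP1 and EIF4EBP2, which encode the 4E-binding proteins and are described with the other translation genes. It kept 2 divergent transcripts, EIF2AK3-DT and EIF3J-DT.

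In eCLIP, RNA is crosslinked to protein in living cells, the protein is immunoprecipitated (IP), and the RNA fragments it carries are sequenced beside a size-matched input. The labels give 8 libraries, 2 IP and 2 input for each protein, all from A172 cells fed 500 µM 4-thiouridine for 3 h and exposed 2 times to 365 nm light at 400 mJ per cm2. The labels name no other treatment and no genotype, and 2% of each lysate was kept as input. The PTBP1 samples were cut from the membrane between 55 and 130 kDa and the IGF2BP2 samples between 65 and 140 kDa. Peak lists of the 4 IP libraries were analysed, and each peak's score already holds the input. Per the labels each experiment was done 2 times, without saying whether on different cultures. The p-values therefore reflect variation among these 4 libraries alone, which may be technical. Depth differed between the proteins: the median member peak held 31 and 20 recovered IP reads in the PTBP1 libraries, and 4 in each IGF2BP2 library. Peaks lay in the glioma-associated genes VIM (29, 20, 8 and 8 peaks in PTBP1 replicates 1 and 2 and IGF2BP2 replicates 1 and 2) and CD44 (101, 108, 85 and 69). They also lay in the neuronal gene RBFOX3 (183, 170, 78 and 59), and GFAP held at most 3, so peak numbers do not check the cell type.

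Initiation factors bring the small ribosomal subunit, the initiator tRNA and the mRNA together. The eIF2 complex delivers the initiator tRNA and is recharged by eIF2B, eIF3 is the large scaffold on the small subunit, and the eIF4 factors bind the cap and unwind the leader. PTBP1 is an RNA-binding protein with a preference for pyrimidine-rich tracts, best known as a repressor of exon inclusion. IGF2BP2 is a cytoplasmic mRNA-binding protein best known for binding 3′ UTRs and stabilising its targets.

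PTBP1 peaks on the initiation factor genes lay in coding sequence far more often than IGF2BP2 peaks did. Coding sequence held 40.3% and 39.3% of the member peaks in the PTBP1 replicates, and 19.9% and 18.9% in the IGF2BP2 replicates. The means were 39.8% ± 0.711 (SD, n = 2 libraries) and 19.4% ± 0.734 (SD, n = 2 libraries), a difference of 20.4 percentage points, and the groups did not overlap. Over all genes the shares were 14.2% and 9.74%, a difference of 4.48 points. Introns mirrored this: 50.3% and 50.8% of the PTBP1 member peaks were intronic, against 69.1% and 70.2% of the IGF2BP2 member peaks, a difference of -19.1 points, while over all genes the difference was -0.375 points. The 3′ UTR share was 4.60% and 4.98% for PTBP1 and 8.13% and 7.55% for IGF2BP2, a difference of -3.05 points beside -3.68 points over all genes. The 5′ UTR share was 4.14% and 4.32% for PTBP1 and 2.61% and 3.02% for IGF2BP2, a difference of 1.42 points beside -0.313 points over all genes. For each of these 4 parts the two-sided exact permutation p was 0.333, the smallest that 2 libraries against 2 can give. Among peaks with at least 10 IP reads, a selection that keeps fewer IGF2BP2 peaks, the coding difference was 51.4 points and the 3′ UTR difference was -27.4 points.

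**Figure D1:**
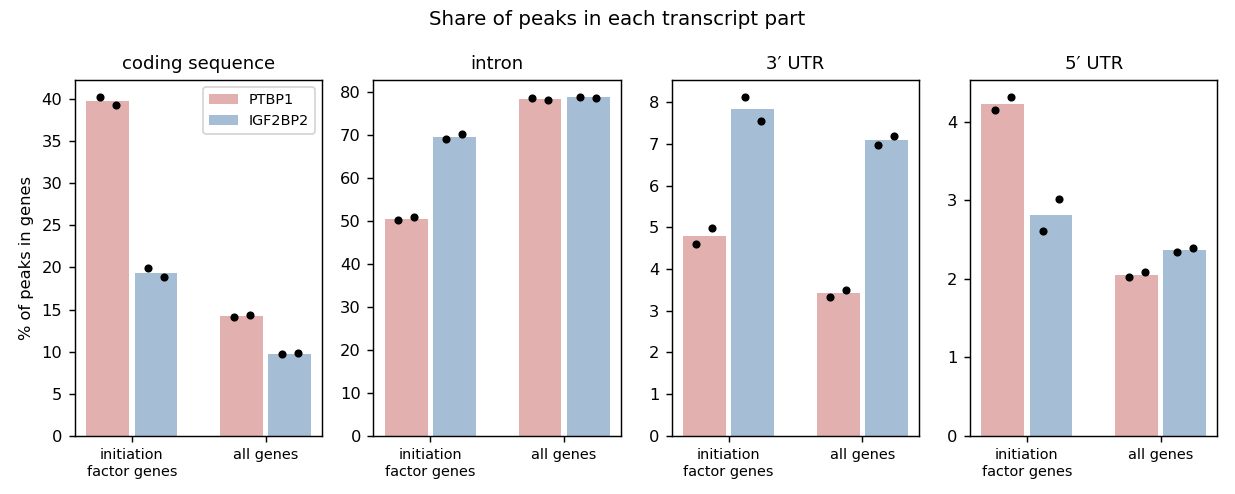
Share of peaks in each transcript part, in % of the peaks annotated to genes, for the initiation factor genes and for all genes. Bars are means of 2 libraries and points are the libraries. On the initiation factor genes the PTBP1 points sit at 39.3% and 40.3% in coding sequence and the IGF2BP2 points at 18.9% and 19.9%.

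The strength of the peaks followed the same division. A peak was called enriched when its log2 ratio of IP to input and its −log10 p were both at least 3, after the scores of all chromosomes had been put on a common scale. On this scale a log2 ratio is that of the reads plus a constant for the library. The constants were -0.303 and -0.0765 for the PTBP1 replicates and 1.74 and 1.90 for the IGF2BP2 replicates. The same read numbers therefore score higher with IGF2BP2, and read pairs cannot be compared between the proteins. In coding sequence, 21.7% and 17.1% of PTBP1 member peaks were enriched, beside 5.93% and 5.54% over all coding peaks of these lists. These were 114 and 81 enriched coding peaks. EIF3C alone held 56 and 39 enriched PTBP1 peaks over all its parts, so these shares lean on 1 gene. For IGF2BP2 the coding values were 2.62% and 3.43%, beside 5.35% and 5.80% over all coding peaks. In 3′ UTRs, 24.4% and 25.7% of the IGF2BP2 member peaks were enriched, beside 20.9% in each list over all 3′ UTR peaks. For PTBP1 the 3′ UTR values were 5% and 3.33%, beside 2.22% and 2.16% over all 3′ UTR peaks. Member coding peaks of PTBP1 also held more reads than coding peaks at large, with a median of 94 and 66 IP reads against 29 and 22.

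Most well-covered member peaks were found again in the other replicate. Of the PTBP1 member peaks, 65.8% (95% Wilson interval 63.2 to 68.3) of replicate 1 and 69.3% (66.6 to 71.8) of replicate 2 overlapped a peak of the other replicate on the same strand. Over all PTBP1 peaks the shares were 55.6% and 61.5%. Of the IGF2BP2 member peaks, 49.0% (45.9 to 52.2) and 50.2% (46.9 to 53.4) were found again, beside 48.2% and 51.6% over all peaks. Peaks with at least 10 IP reads were found again at 83.1% and 88.4% for PTBP1 and 89.6% and 89.1% for IGF2BP2. The intervals cover the counting error of peaks only and not the spread between libraries. Reads may also not be independent molecules.

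Joining the overlapping peaks of both replicates gave 671 PTBP1 regions in 52 members and 425 IGF2BP2 regions in 47 members. An IGF2BP2 region overlapped 174 of the PTBP1 regions (25.9%), and a PTBP1 region overlapped 176 of the IGF2BP2 regions (41.4%). The same shares over all regions were 19.9% and 39.6%. Regions enriched in both replicates numbered 61 for PTBP1 (9.09%, beside 2.33% over all regions) and 24 for IGF2BP2 (5.65%, beside 5.95% over all regions). Of the PTBP1 regions, 49 lay in coding sequence, 10 in introns and 2 in 3′ UTRs. Of the IGF2BP2 regions, 13 lay in 3′ UTRs, 11 in introns and none in coding sequence. These parts are as annotated, for regions of either strand. An overlapping peak lay on the opposite strand for 27 of the PTBP1 and 8 of the IGF2BP2 regions. With opposite strands joined, 37 PTBP1 regions lay in coding sequence, 10 in introns and 2 in 3′ UTRs. For IGF2BP2, 9 then lay in 3′ UTRs and 11 in introns. Regions enriched in both replicates were held by 18 of the 52 members for PTBP1 and by 16 of the 47 for IGF2BP2, while 17.7% and 27.9% of all genes with a replicated region held one. Both proteins had enriched regions in 10 members: EIF2S3, EIF4A1, EIF4A2, EIF4B, EIF4G1, EIF4G2, EIF4G3, EIF4H, EIF5 and EIF5A. The remaining 31 members had none for either protein.

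**Figure D2:**
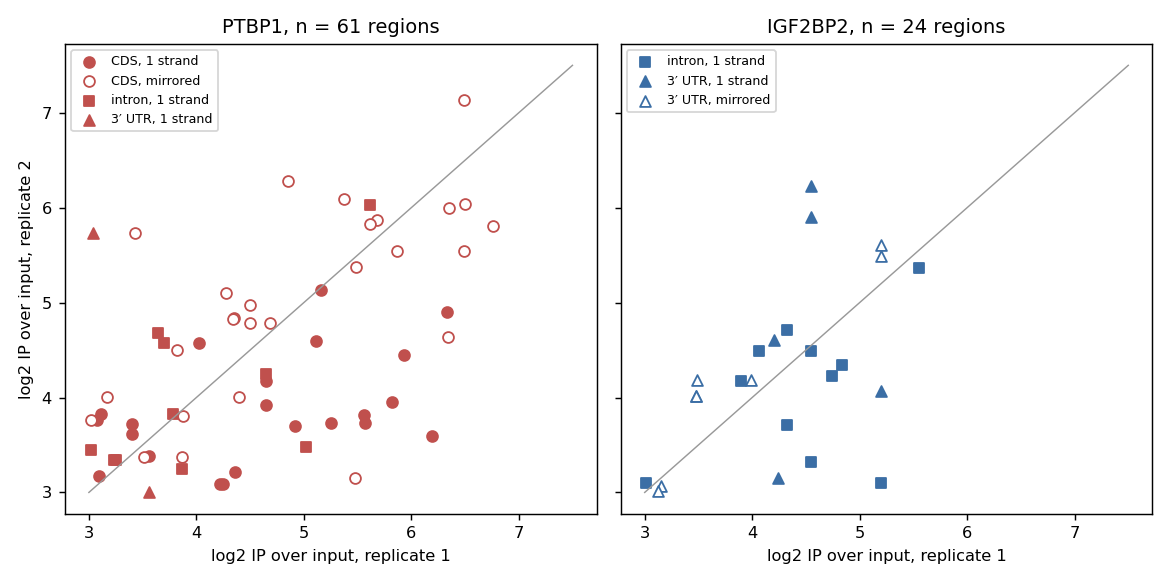
Regions of initiation factor genes enriched in both replicates, with the log2 ratio of IP to input in replicate 1 against replicate 2 for PTBP1 (61 regions) and IGF2BP2 (24 regions). Symbols give the transcript part, open symbols are regions with an overlapping peak on the opposite strand, and the line marks equality. Circles (coding sequence) appear only in the PTBP1 panel.

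Peaks on both strands were a feature of part of these genes and bear on every count. In 40 of the 55 members all peaks lay on 1 strand, and in 15 they lay on both. The rarer strand held at least 20% of the peaks in 9 members, among them EIF2A (38 and 40 peaks on the plus and minus strand), EIF2S2 (43 and 35), EIF4B (118 and 92), EIF3C (196 and 306), EIF4ENIF1 (94 and 64), EIF2B2 (23 and 15) and EIF5A (48 and 28). Member peaks overlapped by a peak on the opposite strand made up 18.2% of each PTBP1 list and 19.7% and 19.2% of the IGF2BP2 lists, beside 10.7% to 11.6% of all peaks. Where 2 such peaks covered each other by at least 80%, the reads of the PTBP1 pairs were mostly close. In replicate 1 the larger IP read number of a pair was at the median 1.06 times the smaller (20 pairs), and in replicate 2 also 1.06 times (16 pairs), with 100% and 93.8% of the pairs within 1.5-fold. The few IGF2BP2 pairs (3 and 6) held at most 11 IP reads, with a median ratio of 1 in IP reads but of 1.57 and 1.58 in input reads. In EIF4B, for example, a pair held 163 and 161 IP reads and 61 and 59 input reads on the plus and minus strand. Counts are therefore also given with strands joined, a choice made after seeing the data. Peaks and regions of either strand were counted for a gene, without regard to the strand of its transcript. EIF3C, EIF2S2 and EIF4G2 held enriched PTBP1 regions on both strands, so part of these lay opposite the transcript. With strands joined the enriched regions numbered 49 for PTBP1 and 20 for IGF2BP2, and with pieces within 100 nt joined as well, 46 and 19. The cause of the paired peaks was not tested.

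**Figure D3:**
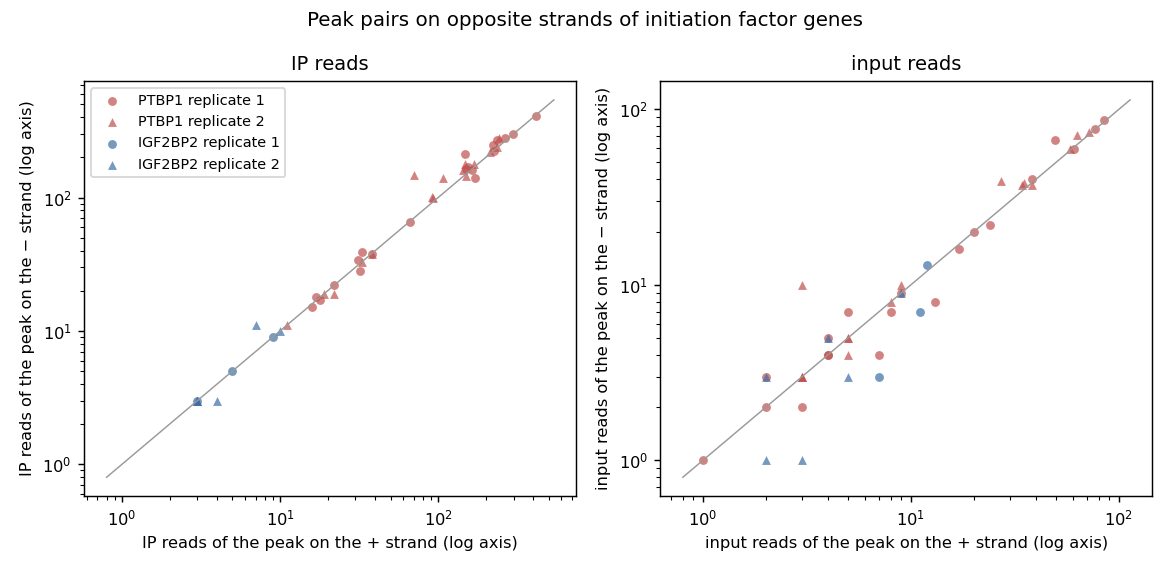
IP reads (left) and input reads (right) of member peaks that cover each other by at least 80% on opposite strands, plus strand on the horizontal and minus strand on the vertical log axis, with the line marking equality. Points are peak pairs coloured by library, and the IP reads of most PTBP1 pairs lie near the line, apart from an EIF3C pair of replicate 2 with 70 and 147.

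Peak density per gene compared the proteins member by member. Density was the number of a gene's peaks relative to its list, on a log2 scale with 0.5 peaks added, and the difference is PTBP1 minus IGF2BP2. Because the PTBP1 lists are longer, equal peak numbers in all 4 lists correspond to a difference of -0.69. Of 49 members with at least 10 peaks over the 4 lists, 1 was higher with PTBP1 and 5 were higher with IGF2BP2 by limma with Benjamini-Hochberg adjustment over all 15145 genes tested, while 12.7% and 12.3% of all genes passed in these directions (25% in either). The other 6 members had fewer peaks and were not tested. Where only 1 protein's peaks reach this minimum by themselves, that a gene differed is in part set by the minimum. This holds for each comparison below. The median difference was -0.26 over members and -0.01 over all genes. In coding sequence, 4 of 30 members were higher with PTBP1 and none with IGF2BP2, while 16.4% and 2.26% of all genes passed (18.7% in either direction). In 3′ UTRs, 6 of 10 members were higher with IGF2BP2 and none with PTBP1, while 55.3% and 2.30% of all genes passed (57.6% in either direction). In introns, 12 of 44 members were higher with IGF2BP2 and none with PTBP1, while 13.1% and 12.1% of all genes passed (25.2% in either direction). The member shares in coding sequence (13.3%) and 3′ UTRs (60.0%) were thus close to those of all genes, and the intron share toward IGF2BP2 (27.3%) was above it. Of the 30 members tested in coding sequence, 28 had a positive difference, and the median was 0.79, beside 0.54 over all genes.

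**Figure D4:**
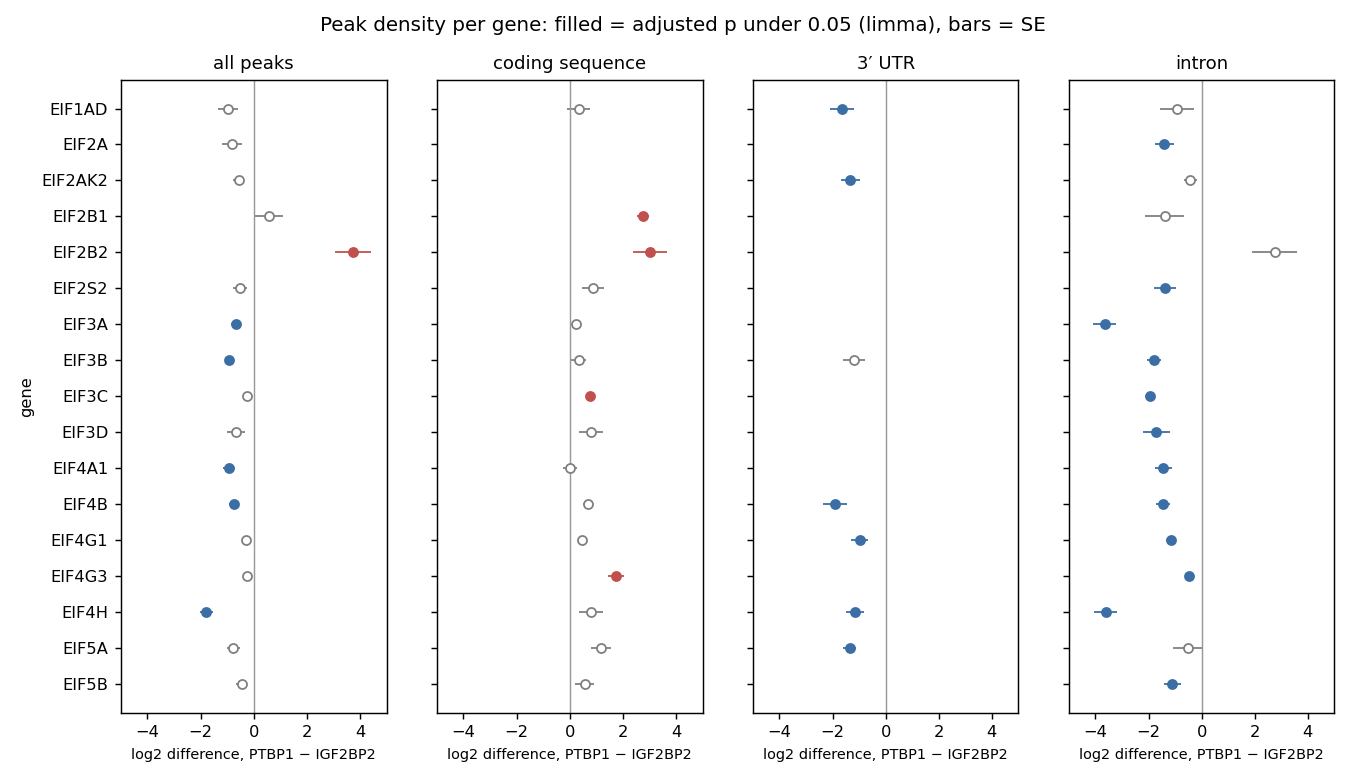
Difference in peak density per gene (log2 scale, PTBP1 minus IGF2BP2) with its SE for the 17 members that passed in at least 1 of the 4 comparisons, for all peaks and for each transcript part. Filled points passed limma's adjusted p threshold of 0.05, red toward PTBP1 and blue toward IGF2BP2, and a missing point was not tested. All filled points in coding sequence are positive and all in 3′ UTRs and introns are negative.

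The eIF1 and eIF1A group, whose products help the small subunit scan for the start codon, carried few peaks. The extents of these genes run from 2.72 to 17.4 kb, and peak numbers are not scaled to gene length. EIF1, EIF1AX and EIF1B held between 1 and 12 peaks in any library and no enriched region. EIF1AD, which encodes a protein with an eIF1A-like domain, held 8 and 12 PTBP1 peaks and 12 peaks in each IGF2BP2 library. Its 3′ UTR held 2 and 4 PTBP1 peaks against 6 in each IGF2BP2 library, a difference of -1.65 (SE 0.44, limma adjusted p = 0.0184), and the libraries did not overlap. One IGF2BP2 region of its 3′ UTR was enriched, at chr11:65998031-65998094, with 11 IP reads to 1 input read and 9 to 2. EIF1AY held 1 IGF2BP2 region in an intron.

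Among the genes of eIF2 and its exchange factor, EIF2B2 and EIF2B1 were higher with PTBP1 in coding sequence, and the other 3 genes of the exchange factor passed in no comparison. EIF2B2, the beta subunit of the exchange factor, held 15 and 22 PTBP1 peaks against 1 and 0 IGF2BP2 peaks. Both PTBP1 libraries lay above both IGF2BP2 libraries, with a fitted difference of 3.74 (SE 0.69, limma adjusted p = 0.0105). With so few IGF2BP2 peaks this size depends on the added peaks: with 2 added in place of 0.5 it was 2.35, among peaks with at least 10 IP reads 1.87, and between 2.99 and 4.49 with 1 library left out. Its coding sequence held 10 and 12 PTBP1 peaks against 1 and 0, a fitted difference of 3.03 (SE 0.64, limma adjusted p = 0.0359) that was 1.71 with 2 peaks added. EIF2B1, the alpha subunit, held 5 coding peaks in each PTBP1 library and none in either IGF2BP2 library, a fitted difference of 2.77 (SE 0.22, limma adjusted p = 0.0024) that was 1.11 with 2 peaks added. EIF2B1 and EIF2B2 reached the minimum of 10 peaks through the PTBP1 lists, so that they differed is in part set by that minimum. EIF2B3, EIF2B4 and EIF2B5, the other subunits, had coding differences of 1.68, 0.98 and 1.08 that did not pass. None of the 5 subunit genes held an enriched region of either protein.

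EIF2S2, the beta subunit of eIF2, held 6 enriched PTBP1 regions, or 4 with strands joined. All were annotated to coding sequence, and they lay on both strands. The strongest, at chr20:34105380-34105545 on the minus strand, held 407 IP reads to 8 input reads in replicate 1 and 216 to 3 in replicate 2. On the common scale these are log2 ratios of 5.37 and 6.09. On the opposite strand an overlapping region held 415 to 13 and 289 to 10. Its introns held 8 and 7 PTBP1 peaks against 17 and 9 IGF2BP2 peaks, a difference of -1.38 (SE 0.40, limma adjusted p = 0.0457). EIF2S3, the gamma subunit, held 1 enriched PTBP1 region in coding sequence, with 47 to 2 and 27 to 3 reads, and 1 IGF2BP2 region in an intron, with 7 to 1 and 8 to 3 reads. EIF2A, an alternative initiator tRNA carrier that is not part of eIF2, held 9 and 16 intron peaks with PTBP1 and 22 and 18 with IGF2BP2, a difference of -1.40 (SE 0.37, limma adjusted p = 0.0337). With strands joined this was -1.10 with an adjusted p of 0.0820.

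Of the 4 kinases that phosphorylate the alpha subunit of eIF2, none passed over all peaks, and EIF2AK2 passed in 3′ UTRs. EIF2AK4, which encodes GCN2, the sensor of uncharged tRNA, held 46 and 32 PTBP1 peaks against 14 and 17 IGF2BP2 peaks, and its difference of 0.59 did not pass (limma adjusted p = 0.108). It held 2 enriched PTBP1 regions, 1 in coding sequence (31 to 1 and 19 to 1 reads) and 1 in an intron (40 to 1 and 106 to 9 reads). EIF2AK2, which encodes PKR, the kinase activated by double-stranded RNA, held 6 and 3 PTBP1 peaks in its 3′ UTR against 8 and 6 for IGF2BP2, a difference of -1.33 (SE 0.36, limma adjusted p = 0.0200). The peak numbers overlapped here only in that replicate 1 of PTBP1 equalled replicate 2 of IGF2BP2. EIF2AK3, which encodes PERK, the endoplasmic reticulum stress kinase, held 1 enriched IGF2BP2 region in an intron with 6 to 1 and 7 to 2 reads. EIF2AK1, the heme-regulated kinase, held 29 PTBP1 peaks in each library and 23 and 36 IGF2BP2 peaks, passed in no comparison and had no enriched region.

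The eIF3 subunit genes carried the largest number of enriched PTBP1 regions, 26 of the 61, and 24 of these belonged to EIF3C. EIF3C encodes a core subunit of the eIF3 scaffold and has a near-identical copy, EIF3CL, so reads may have been assigned to either. It held 155 and 134 PTBP1 peaks and 107 and 106 IGF2BP2 peaks, the highest number of the members in each of the 4 libraries. Of these, 25 and 17 PTBP1 peaks and 22 and 24 IGF2BP2 peaks lay within the extent of EIF3CL (chr16:28379581-28426418) although they carry the name EIF3C. All other EIF3C peaks lay within the extent of EIF3C (chr16:28688558-28735730), while the name EIF3CL was given to only 3, 1, 1 and 1 peaks.

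All 24 enriched EIF3C regions were annotated to coding sequence, 4 of them in the extent of EIF3CL. With strands joined there were 14, and with pieces within 100 nt joined 12. The strongest, at chr16:28724660-28724783 on the minus strand, held 222 IP reads to 2 input reads in replicate 1 and 148 to 1 in replicate 2. On the common scale these are log2 ratios of 6.49 and 7.13. A second, at chr16:28714636-28714690 and also on the minus strand, held 268 to 2 and 177 to 3. On the plus strand, an overlapping region at the first site held 224 to 2 and 139 to 2 reads. An overlapping plus-strand region at the second site held 222 to 2 and 147 to 3. A transcript has 1 strand, so at each site the regions of 1 strand lay opposite it. These reads are therefore not shown to come from EIF3C mRNA. The regions fell into 2 parts of the gene, between 25143 and 26876 nt and between 35860 and 36454 nt from the low end of the EIF3C extent. The 4 regions in the copy lay between 26451 and 26510 nt and between 35866 and 36051 nt from the high end of the EIF3CL extent. Coding peaks numbered 123 and 106 with PTBP1 and 44 and 38 with IGF2BP2, a difference of 0.78 (SE 0.11, limma adjusted p = 0.0115). With strands joined the difference was 0.42 with an adjusted p of 0.0672. Intron peaks went the other way, with 28 and 25 for PTBP1 and 62 and 67 for IGF2BP2, a difference of -1.96 (SE 0.17, limma adjusted p = 0.00101). Among peaks with at least 10 IP reads the intron difference was 0.25 and did not pass. Without EIF3C and EIF3CL, 37 enriched PTBP1 regions remained over the members, and the coding share difference was 17.7 points.

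EIF3A, the largest scaffold subunit, had the largest intron difference of the members tested, close to that of EIF4H. Its introns held 2 peaks in each PTBP1 library against 20 and 18 in the IGF2BP2 libraries, a difference of -3.65 (SE 0.43, limma adjusted p = 0.00218). EIF3A reached the minimum of 10 intron peaks through the IGF2BP2 lists, so that it differed there is in part set by that minimum. Among peaks with at least 10 IP reads its introns could not be tested. The whole gene held 35 such peaks in each PTBP1 library and 0 and 3 in the IGF2BP2 libraries. Its coding sequence held 39 and 36 PTBP1 peaks against 19 and 20, a difference of 0.23 that did not pass (limma adjusted p = 0.259). Over all its peaks (41 and 38 against 39 in each) the difference was -0.68 (SE 0.16, limma adjusted p = 0.0224). Among peaks with at least 10 IP reads this difference was 2.47 and did not pass (limma adjusted p = 0.0985). Its 1 enriched region was a PTBP1 region in coding sequence, at chr10:119044075-119044142, with 663 IP reads to 70 input reads in replicate 2 and a −log10 p at the files' limit of 400 in replicate 1.

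EIF3B, an RNA-binding core subunit, held 14 and 19 intron peaks with PTBP1 and 35 and 36 with IGF2BP2, a difference of -1.79 (SE 0.26, limma adjusted p = 0.00448). Among peaks with at least 10 IP reads this was -1.10 with an adjusted p of 0.105. Both of its enriched regions were IGF2BP2 regions in introns, with 22 to 2 and 16 to 7 reads and with 15 to 3 and 12 to 2 reads. Over all its peaks the difference was -0.93 (SE 0.16, limma adjusted p = 0.00831), and among peaks with at least 10 IP reads it was 0.04 and with enriched peaks only -0.19, neither of which passed. EIF3D, the cap-contacting subunit, held 4 intron peaks in each PTBP1 library against 12 and 6, a difference of -1.70 (SE 0.50, limma adjusted p = 0.0478). It also held an enriched PTBP1 region in its 3′ UTR, at chr22:36510966-36511000, with 61 to 6 and 56 to 1 reads. EIF3F, a subunit of the MPN domain family, held 14 and 13 PTBP1 peaks against 4 and 0, and its difference of 2.53 did not pass (limma adjusted p = 0.0944). EIF3E, EIF3F, EIF3G, EIF3H, EIF3I, EIF3J, EIF3K, EIF3L and EIF3M passed in none of the 4 comparisons and held no enriched region.

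The eIF4 genes were the members with enriched regions of both proteins most often, 7 of the 10. The scaffold EIF4G1, which bridges the cap-binding protein and the ribosome, held 95 and 94 PTBP1 peaks and 72 peaks in each IGF2BP2 library. Its coding sequence held 61 and 59 PTBP1 peaks against 27 and 26, a difference of 0.47 that did not pass (limma adjusted p = 0.0548). Its introns held 26 and 28 against 37 and 38, a difference of -1.16 (SE 0.19, limma adjusted p = 0.00731), and its 3′ UTR 4 in each against 5 in each, a difference of -0.98 (SE 0.33, limma adjusted p = 0.0392). The PTBP1 regions of EIF4G1 were 1 in coding sequence (90 to 1 and 76 to 6 reads) and 1 in an intron (31 to 1 and 20 to 1 reads). EIF4G2, which encodes DAP5, a relative that lacks the cap-binding partner's site, held 4 enriched PTBP1 regions in coding sequence. The strongest of these, at chr11:10804151-10804203 on the minus strand, held 99 to 1 and 63 to 2 reads. The region at chr11:10800741-10800836 lay on the plus strand, which held 14 peaks of EIF4G2 against 87 on the minus strand. EIF4G3, a second full-length scaffold, held 16 and 15 coding peaks with PTBP1 and 3 and 2 with IGF2BP2, a difference of 1.74 (SE 0.30, limma adjusted p = 0.0195). EIF4G3 reached the minimum of 10 coding peaks through the PTBP1 lists, so that it differed there is in part set by that minimum. Its introns held 102 and 84 against 78 and 79, a difference of -0.46 (SE 0.12, limma adjusted p = 0.0341) that was 0.71 and did not pass among peaks with at least 10 IP reads. Its enriched regions, 1 of PTBP1 (32 to 2 and 25 to 1 reads) and 1 of IGF2BP2 (7 to 1 and 6 to 1 reads), both lay in introns. EIF4G2 also held an IGF2BP2 region in an intron, with 8 to 1 and 10 to 2 reads.

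EIF4B and EIF4H, RNA-binding cofactors of the eIF4A helicase, had negative density differences over all peaks. EIF4H held 15 and 11 PTBP1 peaks against 29 and 27 IGF2BP2 peaks, and all PTBP1 values lay below the IGF2BP2 values, with a difference of -1.79 (SE 0.24, limma adjusted p = 0.0035). With enriched peaks only the difference was 0.18 and did not pass. Its introns held 2 PTBP1 peaks in each library against 19 and 18, a difference of -3.62 (SE 0.43, limma adjusted p = 0.00229). Its 3′ UTR held 8 and 4 against 8 in each, a difference of -1.15 (SE 0.33, limma adjusted p = 0.0244). That 3′ UTR held an enriched region of each protein at different places. The IGF2BP2 region, at chr7:74196404-74196441, had 14 to 2 and 16 to 1 reads. The PTBP1 region, at chr7:74195532-74195624, had log2 ratios of 3.56 and 3.00 and a −log10 p at the limit of 400 in both replicates.

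EIF4B held 54 and 49 PTBP1 peaks against 47 and 60, so the libraries overlapped in number, and its density difference was -0.74 (SE 0.18, limma adjusted p = 0.0253). Without the peaks overlapped on the opposite strand it was -0.31 with an adjusted p of 0.387, and it was 0.41 among peaks with at least 10 IP reads and 0.91 with enriched peaks only, neither of which passed. Its 3′ UTR held 2 and 1 PTBP1 peaks against 4 in each IGF2BP2 library, a difference of -1.91 (SE 0.45, limma adjusted p = 0.0125). With strands joined its 3′ UTR fell below the minimum of 10 peaks and was not tested. Its introns held 23 and 22 against 31 and 47, a difference of -1.44 (SE 0.26, limma adjusted p = 0.00955) that was 0.14 among peaks with at least 10 IP reads. All 4 enriched IGF2BP2 regions of EIF4B lay in the 3′ UTR and formed 2 pairs on opposite strands, the stronger with 11 to 1 and 12 to 1 reads on the plus strand at chr12:53040801-53040837. Its 1 enriched PTBP1 region lay in coding sequence on the minus strand, which held fewer of its peaks, with 60 to 6 and 43 to 3 reads.

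The cap-binding genes held few enriched regions. EIF4E, which encodes the cap-binding protein itself, held 26 and 27 PTBP1 peaks against 18 and 19 and no enriched region. EIF4E2, a cap-binding relative, held 2 enriched PTBP1 regions, 1 in an intron (36 to 2 and 20 to 2 reads) and 1 in coding sequence (32 to 3 and 15 to 1 reads). EIF4E1B, a germline relative, held no PTBP1 peak and 2 and 1 IGF2BP2 peaks. Even so, the IGF2BP2 region with the highest mean log2 of the 24 lay in its intron, at chr5:176632493-176632518, with 14 to 1 and 11 to 1 reads. A log2 ratio against a single input read carries wide counting error, and 11 of the 24 IGF2BP2 regions and 21 of the 61 PTBP1 regions had 1 input read in at least 1 replicate.

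The helicase genes EIF4A1 and EIF4A2 host small nucleolar RNAs in their introns, and their enriched intron regions lay there. In RefSeq, 19 small RNA genes lie within the extents of 11 members. Of the enriched intron regions, 5 of 10 for PTBP1 and 3 of 11 for IGF2BP2 overlapped at least 1 of them. In EIF4A1 (chr17), the PTBP1 region 7577954-7578064 overlapped SNORA67 (7577955-7578091), with log2 ratios of 5.62 and 6.03 and a −log10 p at the limit of 400. A second, 7574722-7574817, overlapped SNORA48 and held 788 to 79 and 586 to 51 reads, the most IP reads of the enriched PTBP1 regions with recovered reads. The IGF2BP2 regions of EIF4A1, 7576809-7576859 and 7576883-7576924, both overlapped SNORD10 (7576811-7576958), and the first held 139 to 31 and 144 to 30 reads, the most of the enriched IGF2BP2 regions. At SNORD10 the top PTBP1 peaks had log2 ratios of 0.62 and 0.49, and at SNORA67 the top IGF2BP2 peaks had 1.07 and 1.29. SNORA RNAs guide pseudouridylation and SNORD RNAs guide ribose methylation. In EIF4G1 the 1 enriched IGF2BP2 region, at chr3:184325702-184325746, overlapped SNORD66 and held 43 to 5 and 54 to 10 reads.

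In EIF4A2, 2 of the 3 enriched PTBP1 intron regions overlapped SNORA63, with a −log10 p at the limit. The third, chr3:186786684-186786777, overlapped SNORA81 and the hairpin of MIR1248, and held 17 to 1 and 15 to 1 reads. No IGF2BP2 peak lay at this hairpin in either library. Its RefSeq sequence (GRCh38.p14, chr3:186786672-186786777, plus strand) is shown because it is the only enriched stretch whose bases could be read, with the 94 of its 106 bases that lie inside the PTBP1 region in capitals:
MIR1248 hairpin: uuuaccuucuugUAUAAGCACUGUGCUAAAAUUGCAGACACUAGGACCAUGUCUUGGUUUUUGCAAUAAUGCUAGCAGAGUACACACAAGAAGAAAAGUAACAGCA

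In coding sequence EIF4A2 held 2 further enriched PTBP1 regions (85 to 2 and 51 to 2 reads, and 76 to 3 and 49 to 5 reads), and its 3′ UTR held an IGF2BP2 region with 14 to 2 and 20 to 1 reads. EIF4A1 held 18 and 19 PTBP1 peaks against 22 in each IGF2BP2 library, a difference of -0.94 (SE 0.23, limma adjusted p = 0.0260) that was 1.38 and did not pass with enriched peaks only, and its intron difference was -1.44 (SE 0.31, limma adjusted p = 0.0179). EIF4A3, the helicase of the exon junction complex, held 10 and 9 against 6 and 8 peaks and passed nowhere. Without regions in nested small RNA genes, 56 PTBP1 and 21 IGF2BP2 enriched regions remained over all members.

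Among the late factors, EIF5A stood out for its 3′ UTR. It encodes the hypusine-containing factor that helps the ribosome through difficult peptide bonds. Its 3′ UTR held 8 and 10 PTBP1 peaks against 14 and 15 IGF2BP2 peaks, with no overlap and a difference of -1.36 (SE 0.24, limma adjusted p = 0.00555), and with strands joined -0.97 with an adjusted p of 0.0647. All 4 of its enriched IGF2BP2 regions lay there, as 2 pairs on opposite strands, the deepest with 61 to 23 and 63 to 28 reads at chr17:7311947-7311987. Its 2 enriched PTBP1 regions lay in an intron (46 to 3 and 27 to 1 reads) and in coding sequence (65 to 5 and 52 to 4 reads). EIF5AL1 is a near copy of EIF5A on chr10, and its 1 enriched PTBP1 region in coding sequence (29 to 2 and 22 to 2 reads) cannot be told apart from reads of EIF5A. EIF5, which activates GTP hydrolysis on eIF2, held 2 enriched PTBP1 regions in coding sequence (44 to 1 and 37 to 1 reads, and 20 to 1 and 25 to 1 reads) and 1 IGF2BP2 region in its 3′ UTR (11 to 2 and 13 to 2 reads). EIF6, an anti-association factor of the large subunit, held 1 enriched IGF2BP2 region in its 3′ UTR, with 17 to 3 and 19 to 8 reads.

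EIF5B, the GTPase of subunit joining, held 3 enriched PTBP1 regions in coding sequence, the strongest with 47 to 1 and 28 to 2 reads. Its introns held 11 and 13 PTBP1 peaks against 15 and 17, a difference of -1.10 (SE 0.31, limma adjusted p = 0.0404), and -0.90 with an adjusted p of 0.0681 with strands joined. Its 5′ UTR held a PTBP1 region, chr2:99337399-99337590, with 269 to 40 and 230 to 42 reads (log2 ratios of 2.45 and 2.38), below the minimum of 3 for enrichment.

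The first bases of 12 members lay wholly inside a replicated region on the gene's strand, so their sequence could be read. For these the bases from 21 to 50 after the RefSeq start were taken, on the transcript's strand, from the windows that 47 of the 55 members have. All 12 lay in a PTBP1 region, and 3 (EIF4A3, EIF4G1 and EIF5) also lay in an IGF2BP2 region. A region had to hold all 30 bases, and the median member peak was 38 and 37 nt long with PTBP1 but 23 and 22 nt with IGF2BP2. These numbers therefore do not compare the proteins. In the sequences below (GRCh38.p14), runs of at least 4 pyrimidines are in capitals. They show the leader of the strongest PTBP1 region among them (EIF5B), the 3 shared with IGF2BP2, and the one with the longest pyrimidine run (EIF1).
EIF5B: cagtgcgcgggtctgtggagagccgggtgc
EIF4A3: acagcgaggtcggcagcggcacagcgaggt
EIF4G1: tctgtgcggctgcgtggggctcggccgcgc
EIF5: ctgtgcaCCCTCCggggccgccggCTCTCg
EIF1: gccgaggattcagcagCCTCCCCCTTgagc
They lie at chr2:99337409-99337438, chr17:80147079-80147108, chr3:184314626-184314655, chr14:103334908-103334937 and chr17:41688905-41688934, in this order. The deposited annotation places the EIF5 stretch in an intron and the others in 5′ UTRs. Pyrimidines made up 40%, 33.3%, 53.3%, 63.3% and 56.7% of these bases, beside a mean of 47.5% over the same bases of 35116 RefSeq windows. None of the 12 stretches lay in a region enriched in both replicates. The PTBP1 log2 ratios were highest at EIF5B (2.45 and 2.38) and were -0.14 and -0.13 at EIF1, which has the longest run. The base and motif counts therefore do not describe enriched regions. Of the 12 stretches, 1 held TCTT on the transcript strand (8.93% of all windows do), none held CTTT (9.73%) or CTCTCT (1.23%), none held ACAC (6.40%) or CATT (6.04%), and 1 held GGAC (12.1%). On the opposite strand 1 held ACAC and none held the other 5. A missing motif says only that these letters are not in these 30 bases.

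**Figure D5:**
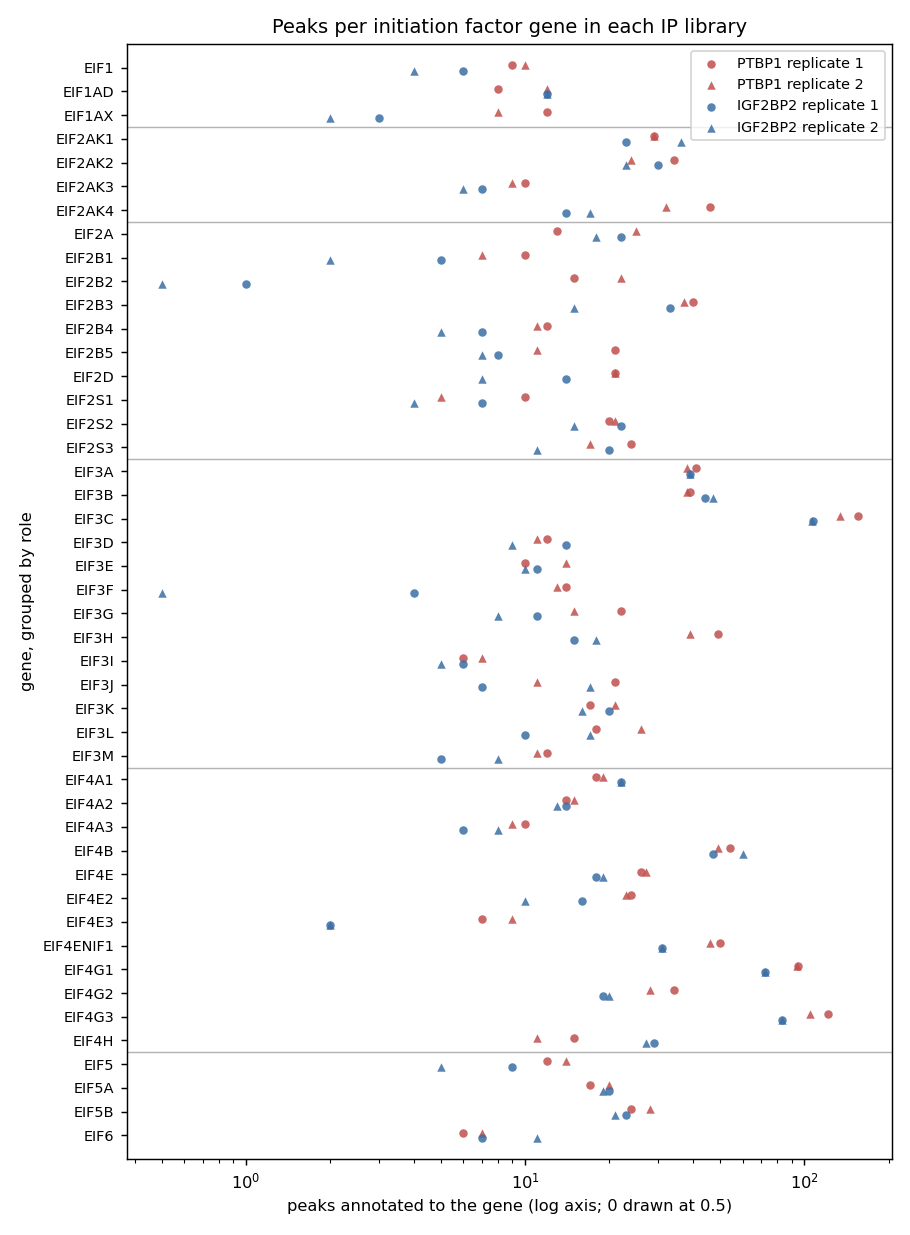
Peaks annotated to each initiation factor gene with at least 20 peaks over the 4 lists, grouped by role (separated by lines), on a log axis with 0 drawn at 0.5. Circles and triangles are replicates 1 and 2, red PTBP1 and blue IGF2BP2. EIF3C holds the most peaks in each library, and EIF2B2 shows the widest gap between the proteins.

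Several calls were lost when a single library was left out. Over all peaks, EIF3A had an adjusted p of 0.0875 without PTBP1 replicate 1 and 0.0643 without PTBP1 replicate 2, and EIF4A1 had 0.142 and 0.0611. In coding sequence, EIF3C had 0.122 and 0.0972 and EIF4G3 0.122 and 0.142 without these same libraries. In 3′ UTRs, EIF1AD had 0.0510 without PTBP1 replicate 1, EIF2AK2 had 0.0611 and EIF4H 0.0984 without PTBP1 replicate 2, and EIF4G1 had between 0.0879 and 0.156 without any 1 of the 4 libraries. In introns, EIF2A had 0.135 and EIF4A1 0.0853 without PTBP1 replicate 1, while EIF4G3 had 0.0600 and 0.146 and EIF5B 0.211 and 0.0834 without PTBP1 replicates 1 and 2. EIF2S2 had 0.139, 0.142 and 0.0816 and EIF3D 0.185, 0.148 and 0.103 without PTBP1 replicate 1, PTBP1 replicate 2 and IGF2BP2 replicate 1. All of these kept their direction. EIF2B2, EIF3B, EIF4B and EIF4H over all peaks, EIF2B2 in coding sequence, EIF4B and EIF5A in 3′ UTRs, and EIF3A, EIF3B, EIF3C, EIF4B, EIF4G1 and EIF4H in introns passed without any 1 library. Of this last list, EIF4B in 3′ UTRs could not be tested with strands joined. EIF3A in introns could not be tested among peaks with at least 10 IP reads. In this same list, EIF2B2, and EIF3A and EIF4H in introns, reached the minimum of 10 peaks through 1 protein's lists. Among peaks with at least 10 IP reads, 21 members passed over all peaks, 14 toward PTBP1 and 7 toward IGF2BP2, instead of 1 and 5, while 34.3% and 16.1% of all genes tested passed in these directions. In coding sequence 15 passed toward PTBP1 and none toward IGF2BP2 under that minimum, while 57.1% and 11% of all genes passed. In introns 3 passed in each direction, while 34.5% and 13.2% of all genes passed. Of the members, 38, 20 and 15 could be tested in these 3 comparisons.

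The other genes of translation, a list of 39 covering elongation, termination, cap and tail binding and eIF2 control, gave 35 genes tested over all peaks, 3 higher with PTBP1 and 13 higher with IGF2BP2, while 12.7% and 12.3% of all genes passed. In coding sequence 5 of 23 were higher with PTBP1 and 1 with IGF2BP2 (16.4% and 2.26% of all genes). In 3′ UTRs none and 4 of 6 passed in these directions (2.30% and 55.3% of all genes), and in introns 2 and 11 of 29 (12.1% and 13.1%). LARP1, which binds mRNAs with a pyrimidine tract at the cap, held 85 and 83 PTBP1 peaks against 108 and 96, a difference of -0.97 (SE 0.11, limma adjusted p = 0.00254) over all peaks and 1.46 (SE 0.20, limma adjusted p = 0.00915) in coding sequence. BZW2, a regulator that resembles eIF5, held 19 and 20 PTBP1 peaks against 0 and 2, a fitted difference of 3.47 (SE 0.81, limma adjusted p = 0.0232). BZW2 reached the minimum number of peaks through the PTBP1 lists, so that it differed is in part set by that minimum. With so few IGF2BP2 peaks the size of its difference also depends on the added peaks. EIF4EBP1, which sequesters the cap-binding protein, held 10 PTBP1 peaks in each library against 13 and 15, a difference of -1.16 (SE 0.31, limma adjusted p = 0.0345). EIF4EBP2 held 25 and 26 against 16 in each, a difference of -0.04 over all peaks and of -0.93 (limma adjusted p = 0.0319) in 3′ UTRs, with 2 enriched PTBP1 regions and 1 IGF2BP2 region. Enriched regions were held by 9 of the 39 genes for PTBP1 and 16 for IGF2BP2, while 17.7% and 27.9% of all genes with a replicated region held one.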

How the data were processed

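The deposited peak lists of 4 IP libraries were used; the 4 inputs enter through each peak's score. Per the submitters' processing notes, reads were aligned with HISAT2 to hg38; the peak caller is not given in the sources used here. Per the file headers, each peak has a position, strand, gene, transcript part, a −log10 p-value (limit 400) and a column headed as a count, which by its values is a log2 ratio of IP to input plus a constant for each chromosome, as the authors deposited it. The constant was read from the commonest value (3 IP reads to 1 input read) and matched the p-value on 24 of 24 chromosomes in each list. IP and input reads were then recovered for 98.9% to 99.6% of member peaks with a usable score (p-value matched within 1%), and scores were put on the median constant. A usable score has a log2 ratio that is not negative and a −log10 p that is positive and below 400. Other peaks have no recovered reads and do not count among peaks with at least 10 IP reads. Repeated lines (55, 36, 3 and 3) were dropped. No table held columns of other samples.

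Overlap needed 1 nt on the same strand. Peak density was fitted with limma 3.58.1 (R 4.3.3, trend) on log2((peaks + 0.5) per 10000 peaks of the list), keeping genes whose peaks summed to 10 or more, with no covariate, Benjamini-Hochberg adjustment over all genes tested and a threshold of 0.05. Shares were compared by exact permutation (Python 3.11.15, scipy 1.17.1). The overlap, read recovery and density code was tested on simulated data. Members were matched to RefSeq extents (55 of 55) and 5′ windows (47 of 55). The genes named are members that passed a density comparison or held a region enriched in both replicates; other members named were picked after their values were seen. The members and gene lists were chosen with earlier results of these data known. Alternatives covered scaling, pseudocount, filter, nucleotides covered, read minimum, enriched peaks, strands, small RNA genes, a replicate block, and each library left out. Planned sequences and motif counts of the enriched regions themselves were not made, since no genome was used here. The bases of the 5′ windows and 1 hairpin were read instead. No enriched member region was annotated to a 5′ UTR, so the 5′ windows cannot stand in for the enriched regions.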

Additional observations from a re-analysis of the deposited data

How the results depend on the processing

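The share differences in coding sequence, 3′ UTRs and introns kept their direction under all alternatives run; none was run for 5′ UTRs. Over all genes, 3782 genes passed for all peaks, 1123 for coding sequence, 1503 for 3′ UTRs and 3293 for introns. For all peaks this was 6717 with nucleotides covered (21 members, 6 toward PTBP1 and 15 toward IGF2BP2) and 979 of 2521 with enriched peaks only (499 toward PTBP1 and 480 toward IGF2BP2; 5 of 13 members, toward PTBP1). With a pseudocount of 2, 10 members passed. With peaks of at least 10 IP reads, 2298 genes passed in coding sequence (15 members) and 731 in 3′ UTRs, while 21 members passed for all peaks and 6 in introns. Leaving out 1 library gave 2267 to 6388 genes (4 to 17 members) for all peaks, 1109 to 3153 (3 to 14 members) in coding sequence, 1294 to 1539 (3 to 7 members) in 3′ UTRs and 2094 to 5077 (7 to 17 members) in introns, lowest without a PTBP1 library for all peaks and introns. Replicate numbers share only a number: with 2 pairs, the correlation of deviations of same-numbered libraries was -0.00157 over 15145 genes. With the replicate block 2083 genes passed in coding sequence (10 members), and 11 members passed for all peaks; the block ended 1 call, EIF4G1 in 3′ UTRs (adjusted p = 0.0520). Enriched member regions numbered 23 for PTBP1 and 8 for IGF2BP2 at the stricter minimum (log2 of 4, −log10 p of 5), 37 for PTBP1 without EIF3C and EIF3CL, and, as peaks of 1 replicate alone, 111 to 138 for PTBP1 and 65 for IGF2BP2. Member peaks of at least 10 IP reads found again were 83.1% and 88.4% (PTBP1) and 89.6% and 89.1% (IGF2BP2). Of the values for named members, 199 kept direction and call, 35 kept direction only, and 9 turned direction: with at least 10 IP reads EIF3A (2.47), EIF3B (0.04) and EIF4B (0.41) for all peaks and EIF3C (0.25), EIF4B (0.14) and EIF4G3 (0.71) in introns, and with enriched peaks only EIF4A1 (1.38), EIF4B (0.91) and EIF4H (0.18); the cause was not tested.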
